A study of Mus musculus with 2 samples.

Results

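The clustered histone genes of the mouse were followed in the endothelial cells (ECs) of 2 tumours. They were taken as every gene in the expression matrices whose symbol starts with Hist1h, Hist2h, Hist3h or Hist4h, which gave 64 of the 17139 listed genes. By the type in the symbol, 6 encode linker histone H1, 17 encode H2A, 16 encode H2B, 12 encode H3 and 13 encode H4. On GRCm38, 52 lie on chromosome 13, 9 on chromosome 3, 2 on chromosome 11 and 1 on chromosome 6. The study compared tumour ECs with and without activation of STING, the receptor for cyclic dinucleotides. Lewis lung carcinoma (LLC) cells, a mouse tumour line, had been implanted under the skin of male C57BL/6J mice (c57bl/6 in the labels) of 8 to 9 weeks. The control tumour received PBS and the treated tumour 14 µg of cGAMP, a STING agonist, in 70 µl, both by intratumoural injection. Live ECs were sorted from each tumour and sequenced with a droplet kit that reads the 3′ end of polyadenylated RNA, as 1 library from 1 mouse per treatment. Cells were collected 24 h after injection by the methods and by the main legend for these cells, although a supplementary legend has 6 h.

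Histones are the proteins around which DNA is wound. H2A, H2B, H3 and H4 form the core of the nucleosome, and H1 binds the DNA that links nucleosomes. The clustered genes are known as replication-dependent because most of their mRNA is made in S phase, when newly copied DNA has to be packed. Their mRNAs are unusual in ending in a short stem-loop instead of a poly(A) tail, although some of these genes also give polyadenylated mRNA, so a method that captures poly(A) tails reads only part of the histone mRNA of a cell.

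The PBS library held 2517 ECs with 92081146 unique molecular identifiers (UMIs, each standing for 1 captured mRNA molecule), at a median of 29780 per cell. For cGAMP there were 1340 ECs, 63366746 UMIs and a median of 41178 per cell, and 1 cell barcode was found in both libraries. Levels are given as CPM, the UMIs of a gene summed over cells for every 1000000 UMIs of those cells. With 1 mouse per treatment no difference between the libraries has a replicate check, no test was made, and every interval covers counting error only. All 5 endothelial markers examined (Pecam1, Cdh5, Kdr, Tie1 and Egfl7) were present, Pecam1 in 99.7% of the PBS-treated ECs and in 99.6% of those given cGAMP. The 5 leucocyte markers found in the files (of 7 looked for) summed to 13.5 CPM in the PBS library and 38.6 CPM in the cGAMP library, with Ptprc, which defines leucocytes, at 0.25 and 0.60 CPM. The median share of mitochondrial UMIs per cell was 4.49% and 2.87%. Histone levels with such cells left out are given beside the sums over all ECs.

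The stem-loop at the 3′ end of the mRNA is the feature that sets these genes apart from others, and its copies are shown here because the annotated transcripts differ in whether they stop at it. In GENCODE vM21, 44 of the 64 genes had a stem-loop after the stop codon, and it took only 8 forms. The form shown for Hist1h1e was present in 24 genes of types H1, H2A, H2B and H3, that of Hist1h3c in 6 genes of types H1, H2B and H3, and that of Hist1h4d in 7 genes, all H4. Each sequence below is the RNA strand written as DNA, with the 16 bases of the stem-loop in capitals and up to 5 flanking bases on each side.
Hist1h1e: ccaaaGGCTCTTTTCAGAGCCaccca
Hist1h2ap: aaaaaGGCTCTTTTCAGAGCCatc
Hist1h2ae: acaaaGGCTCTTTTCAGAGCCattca
Hist1h3c: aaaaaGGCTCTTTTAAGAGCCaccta
Hist1h4d: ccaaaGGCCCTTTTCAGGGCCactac
Hist2h2ac: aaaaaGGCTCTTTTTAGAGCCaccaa
The annotated transcript of Hist1h2ap ended 3 bases after the stem-loop, whereas that of Hist1h1e went on for 1153 bases and that of Hist1h4d for 770 bases. Over all 64 genes, 21 transcripts ended within 100 bases of the stem-loop, 23 ran on for longer, and in 20 no stem-loop was found. Of the 23 longer transcripts, 10 held the polyadenylation signal AATAAA in their last 50 bases, against 0 of the 21 that ended at the stem-loop and 2 of the 20 without one. Several of those 20, such as Hist1h1b and Hist1h2ak, are annotated only to the stop codon, so that the annotation does not reach the place where a stem-loop would lie.

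The promoters also differed by histone type. RefSeq promoter windows on GRCm38.p6, from 250 bases before to 50 bases after the start, were matched to 58 of the genes (59 windows), and 4 short motifs were searched on both strands, with overlaps allowed. CCAAT was in every window of H1, H2A, H2B and H3 genes but in 3 of the 12 H4 windows, against 37.4% of all 32851 promoters. TATAAA, the core of the TATA box, was in 57.6% of the histone windows and 13.6% of all promoters. ATTTGCAT, the octamer bound by POU-domain factors, was in 7 of 16 H2A and 6 of 15 H2B windows, in none of the others, and in 1.74% of all promoters. Windows of neighbouring H2A and H2B genes on opposite strands can overlap, so these counts are not of separate sites. The same octamer counts for both Hist1h2ae and Hist1h2bg, and another for both Hist1h2ah and Hist1h2bk. AAACACA, known as the H1 box, was in 5 of 6 H1 windows and 7.18% of all promoters. The 150 bases before the start are shown for genes on which the results below turn, with motif matches in capitals. The TATAAA match of Hist1h2ak lies past the stretch shown, in the 50 bases after the start. Hist1h1b and Hist1h1c are both linker histone genes, Hist1h2ac shares its promoter region with Hist1h2bc, and Hist1h2ak and Hist1h4d stand for H2A and H4. The spans are chr13:21780626-21780775 (minus strand), chr13:23738657-23738806 (plus), chr13:23683960-23684109 (minus), chr13:21753913-21754062 (minus) and chr13:23581418-23581567 (plus).
Hist1h1b: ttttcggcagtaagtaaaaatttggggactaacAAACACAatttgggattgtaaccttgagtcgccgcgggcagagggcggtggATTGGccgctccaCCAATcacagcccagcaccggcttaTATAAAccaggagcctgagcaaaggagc
Hist1h1c: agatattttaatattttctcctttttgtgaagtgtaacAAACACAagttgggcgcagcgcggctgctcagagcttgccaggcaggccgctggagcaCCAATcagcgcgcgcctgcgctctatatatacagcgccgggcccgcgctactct
Hist1h2ac: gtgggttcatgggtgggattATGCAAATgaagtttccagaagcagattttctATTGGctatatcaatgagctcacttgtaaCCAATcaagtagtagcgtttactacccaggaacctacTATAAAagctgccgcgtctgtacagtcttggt
Hist1h2ak: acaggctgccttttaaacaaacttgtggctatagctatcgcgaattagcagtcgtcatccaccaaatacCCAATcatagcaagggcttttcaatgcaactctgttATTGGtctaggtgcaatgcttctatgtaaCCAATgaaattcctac
Hist1h4d: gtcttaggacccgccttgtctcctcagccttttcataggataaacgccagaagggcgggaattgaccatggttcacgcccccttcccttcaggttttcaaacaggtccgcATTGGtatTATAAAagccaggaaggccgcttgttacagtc
A match is a description of these letters and not a measured binding site.

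Summed over all ECs, histone mRNA was lower in the cGAMP library, and most of all for H1. The 64 genes gave 53871 UMIs in the PBS library, or 585 CPM (95% counting interval 580.1 to 590), and 26714 UMIs in the cGAMP library, or 422 CPM (417 to 427). The log2 ratio of cGAMP over PBS was -0.47 (-0.49 to -0.45). It was -0.57 among ECs with at most 5% mitochondrial UMIs, and -0.45 among ECs with Pecam1 and Cdh5 UMIs and no Ptprc UMI. In sums over cells, fewer cells with histone mRNA and less histone mRNA per cell cannot be told apart. H1 mRNA stood at 203 CPM in the PBS library and 117 CPM in the cGAMP library (log2 ratio -0.79, -0.83 to -0.75). H4 mRNA stood at 76.5 and 53.5 CPM (log2 ratio -0.52, -0.58 to -0.46), and H2B mRNA at 122 and 87.0 CPM (-0.48, -0.53 to -0.44). H3 mRNA was at 27.8 and 23.2 CPM (log2 ratio -0.26, -0.36 to -0.17). H2A mRNA was the least different, at 156 and 140.5 CPM (log2 ratio -0.15, -0.19 to -0.11).

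Of the 64 genes, 19 reached 5 CPM in either library and could be set beside the 9509 genes that did so. They were 5 H1, 7 H2A, 2 H2B, 2 H3 and 3 H4 genes, and they held 92.4% of the histone UMIs of the PBS library. Of these, 16 were lower in the cGAMP library by any size, where 59.6% of all 9509 genes were lower, and 3 were higher, where 40.4% were. Their median log2 ratio was -0.50, against -0.075 over all genes. At least 2-fold lower was 1 gene, where 1.7% of all genes were, and 0 were at least 2-fold higher, where 1.82% of all genes were. The gene at least 2-fold lower was Hist1h1c, a linker histone gene (chr13:23738808-23740367), and it fell short of 2-fold with the cell class shares held equal (-0.92) and, narrowly, after thinning (-0.9996).

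Among the linker histone genes, Hist1h1c stood at 50.5 CPM in the PBS library and 24.3 CPM in the cGAMP library (log2 ratio -1.06, -1.14 to -0.97). Hist1h1b (chr13:21779883-21780625) stood at 68.4 and 37.0 CPM (log2 ratio -0.88, -0.95 to -0.81). For Hist1h1e (chr13:23620629-23622558) the levels were 70.6 and 45.1 CPM (-0.65, -0.71 to -0.58). All 3 were lower by more than their counting error, as was Hist1h1d at 7.58 and 5.02 CPM. Hist1h1a was at 5.59 and 6.04 CPM, and the interval of its log2 ratio of 0.11 (-0.083 to 0.31) spanned 0. Only 0.97% of the 90-base windows in the last 500 bases of the Hist1h1e transcript were unique to it, the rest being shared with Hist1h2be and Gm11398, so its value is uncertain.

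The core histone genes did not all lie on the same side. Hist1h2bc, an H2B gene (chr13:23684199-23692908), stood at 97.5 CPM in the PBS library and 68.0 CPM in the cGAMP library (log2 ratio -0.52, -0.57 to -0.47). Hist1h4d, an H4 gene (chr13:23581598-23582735), stood at 47.5 and 31.9 CPM (-0.57, -0.65 to -0.50). Hist1h2ap, an H2A gene (chr13:21833026-21833507), stood at 51.1 and 38.7 CPM (-0.40, -0.47 to -0.33). These 3 were lower in the cGAMP library, and 2 other H2A genes were higher. Hist1h2ak (chr13:21753435-21753827) stood at 12.6 and 20.1 CPM (log2 ratio 0.67, 0.55 to 0.79). Hist1h2ae (chr13:23570517-23571220) stood at 35.2 and 39.2 CPM (0.16, 0.080 to 0.23). Many of the H2A genes share parts of their sequence, with 7.63% of windows unique in Hist1h2ap, 52.3% in Hist1h2ae and 83.6% in Hist1h2ak, so reads may have been divided between them.

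**Figure D1:**
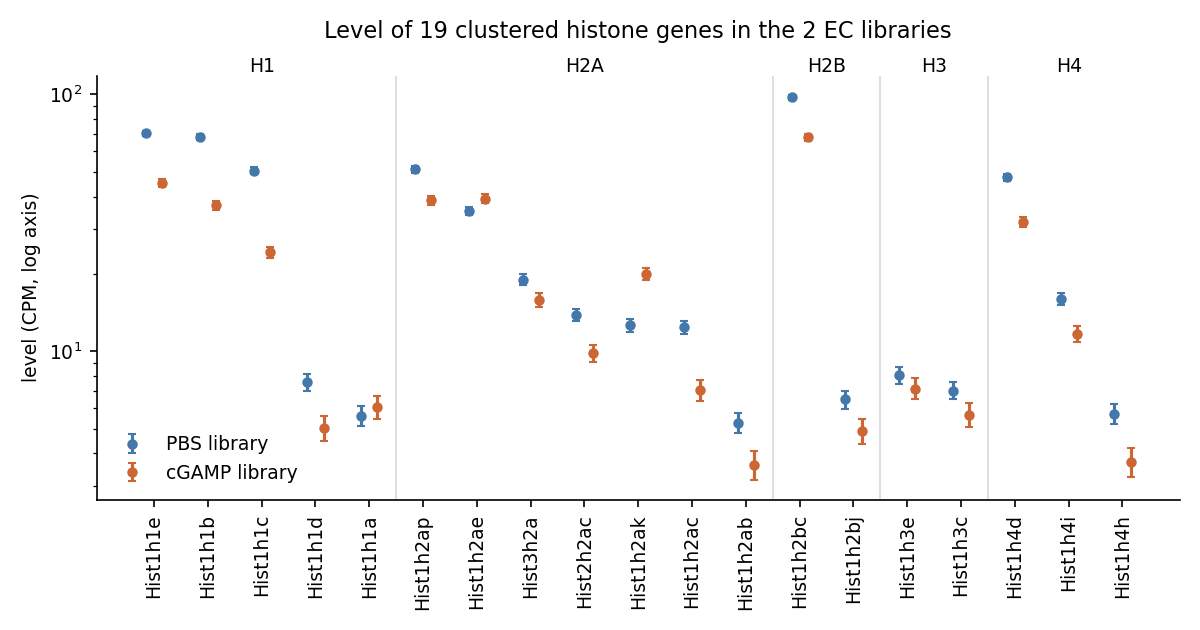
Level in CPM (log axis) of the 19 genes that reached 5 CPM, grouped by histone type, in the PBS library (blue) and the cGAMP library (orange). Points are levels summed over all ECs of 1 library, bars are 95% counting intervals, and 16 of the 19 genes lie lower in the cGAMP library, the exceptions being Hist1h2ak, Hist1h2ae and Hist1h1a.

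These ratios depended on which cells were counted. With the shares of the cell classes described next held equal in both libraries, the H2A and H3 ratios turned to 0.17 and 0.054, and within ECs of 20000 to 60000 UMIs the ratio of all 64 genes was -0.86 and that of H2A -0.77, with Hist1h2ak at -0.19, Hist1h2ae at -0.51 and 8 of the 19 genes at least 2-fold lower, where 2.03% of all genes were.

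Since histone mRNA belongs to S phase, the ECs were sorted by cell cycle genes other than the clustered histone genes. Among the G2/M genes used was Cenpa, which encodes a histone variant. UMIs of 40 S-phase and 54 G2/M genes were summed in each cell per 10000 UMIs, and cells were called high on a list above 12.1 (S) or 30.1 (G2/M), levels that best divided the cells of both libraries. In the PBS library 1712 cells (68.0%) were low on both lists, 178 (7.07%) were high on S genes only, 120 (4.77%) on G2/M genes only, and 507 (20.1%) on both. In the cGAMP library 932 cells (69.6%) were low on both, 180 (13.4%) high on S genes only, 21 (1.57%) on G2/M genes only and 207 (15.4%) on both. These classes are ranges of a score and not cell types, and 208 PBS-treated and 102 cGAMP-treated ECs lay within 0.25 (log2) of the S level. Cells high on S genes, with or without G2/M genes, made up 27.2% and 28.9%, a difference of 1.67 percentage points (-1.34 to 4.71), which was 9.32 points by the phase calls of Seurat and -0.998 points with at most 5% mitochondrial UMIs.

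Most histone mRNA came from the cells high on both lists. With 20.1% and 15.4% of the ECs of each library, they held 63.0% and 68.0% of all histone UMIs. Per cell, the median was 12.2 histone UMIs per 10000 with PBS and 13.7 with cGAMP, against 2.25 and 1.34 in cells low on both lists. The cells high on S genes only were at 1.79 and 0.98, below the cells low on both. The spread inside the class was wide: the tenth percentile of cells high on both lists was 1.59 and 1.55 per 10000, and the ninetieth 35.1 and 31.3. A level of 10 per 10000 or more was reached by 13.4% of PBS-treated ECs (12.1 to 14.8) and 10.1% of cGAMP-treated ECs (8.51 to 11.8), and 84.6% and 93.3% of those cells were high on both lists. The cell with the most histone mRNA held 322 histone UMIs with PBS and 595 with cGAMP. After each cell was thinned to 5000 UMIs, whereby 70 ECs of the PBS tumour and 13 of the cGAMP tumour with fewer UMIs dropped out, 88.6% and 87.7% of the cells high on both lists had a histone UMI, against 68.0% and 51.1% of the cells low on both. Before thinning, 0.79% and 0.48% of the cells high on both lists and 4.91% and 4.94% of those low on both had no histone UMI. Depth differed along with class, with a median of 43222 and 56473 UMIs in cells high on both lists and 25684 and 37087 in cells low on both.

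**Figure D2:**
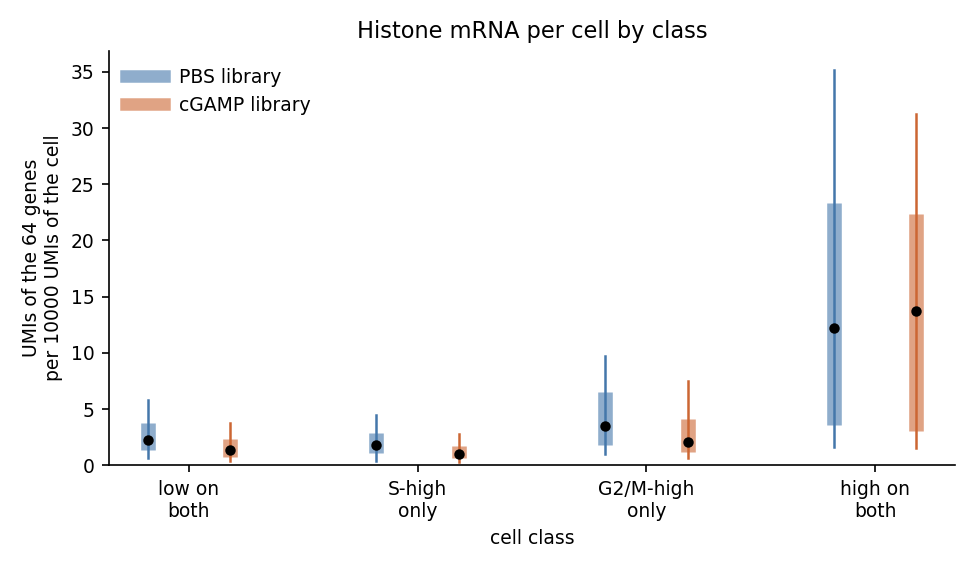
UMIs of the 64 clustered histone genes per 10000 UMIs of the cell, by cell cycle class and library. Dots are medians over cells, thick bars run from the 25th to the 75th percentile and thin lines from the 10th to the 90th, and the medians of cells high on both lists (12.2 and 13.7) stand above those of every other class.

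The histone types were not equally tied to these cells. H2A mRNA was 10.7-fold higher in cells high on both lists than in cells low on both in the PBS library and 22.2-fold higher in the cGAMP library. For H3 the folds were 8.99 and 19.5, for H1 7.54 and 16.5, and for H4 5.72 and 5.96. The H2B sum did not follow, with 0.91 and 1.30-fold, but 1 gene made this difference. Hist1h2bc gave 8975 of the 11212 H2B UMIs of the PBS library. The other 15 H2B genes together were at 6.92 CPM in cells low on both lists and 67.3 CPM in cells high on both with PBS (9.72-fold), and at 3.94 and 76.2 CPM with cGAMP (19.3-fold), folds like those of H1 and H3. Their log2 ratio between the treatments was -0.36 over all ECs, -0.81 in cells low on both lists and 0.18 (0.064 to 0.29) in cells high on both.

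**Figure D3:**
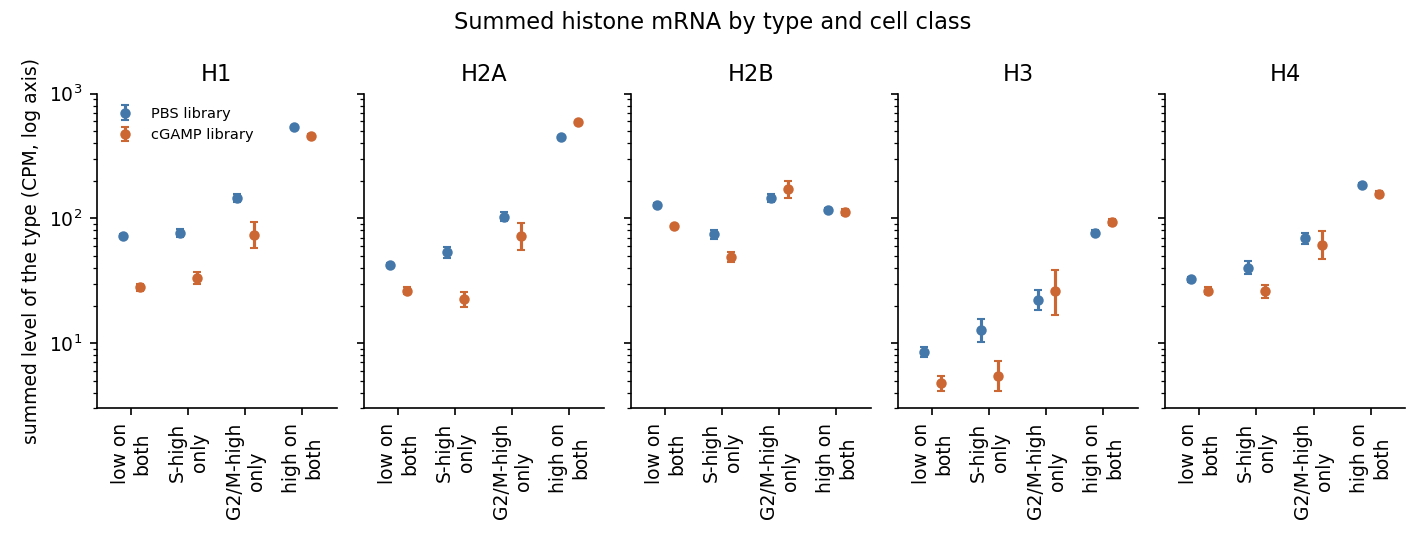
Summed level in CPM (log axis) of each histone type in the 4 cell classes, in the PBS library (blue) and the cGAMP library (orange), with 95% counting intervals. H1, H2A, H3 and H4 are highest in cells high on both lists, whereas H2B lies between 48.7 and 171 CPM in all classes. Most H2B UMIs are of Hist1h2bc over all ECs, but not in cells high on both lists.

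Gene by gene, 15 of the 19 genes were at least 2-fold higher in cells high on both lists than in cells low on both in the PBS library, where 5.91% of all genes were, and 17 of 19 in the cGAMP library, where 5.43% were. At least 2-fold lower was 1 gene, Hist1h2bc, in each library, where 1.99% and 1.88% of all genes were. By any size, 17 of the 19 genes were higher in each library, where 48.4% and 46.7% of all genes were, and 2 lower, where 51.6% and 53.3% were. Because the classes were cut from cell cycle genes of the same cells, these counts describe how histone mRNA goes with those genes and are no test. Hist1h1b was at 0.88 CPM in cells low on both lists of the PBS library and 242 CPM in cells high on both, a 276-fold difference. Hist1h2ap was 127-fold higher, from 1.39 to 177 CPM. Hist1h2ak was 114-fold higher, from 0.38 to 43.6 CPM, and Hist1h2ae 59.4-fold, from 2.01 to 119 CPM. These 4 genes had between 91.2% and 95.3% of their UMIs in the cells high on both lists.

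Other members had UMIs in both classes. Free RNA can give UMIs in cells that do not express a gene: the leucocyte marker Lyz2 had a UMI in 13.5% of the ECs given PBS and in 38.4% of those given cGAMP, and the part of free RNA in the low levels was not tested. Of 6294 UMIs of Hist1h1b in the PBS library 48 lay in cells low on both lists, and of 6504 UMIs of Hist1h1e 1233 did. Hist1h1e was at 22.5 CPM in cells low on both lists of the PBS library and 193 CPM in cells high on both (8.58-fold), and Hist1h4d at 17.4 and 126 CPM (7.25-fold). In the same library Hist1h1c was at 47.1 and 63.8 CPM (1.35-fold) and Hist1h2ac at 11.03 and 16.5 CPM (1.49-fold). With cGAMP both were at least 2-fold higher in cells high on both lists, Hist1h1c by 2.59-fold. The H1 box and CCAAT are present in the upstream sequences of both Hist1h1c and Hist1h1b shown above. Hist1h2bc ran the other way, with PBS at 122 CPM in cells low on both lists and 49.1 CPM in cells high on both (0.40-fold). Hist3h2a, an H2A gene on chromosome 11, was at 22.8 and 14.3 CPM with PBS (0.63-fold). In thinned cells of the PBS library, a UMI of Hist1h1b was found in 48.0% of cells high on both lists and 0.36% of cells low on both, and one of Hist1h2bc in 17.1% and 37.7%. Before thinning, the shares were 71.8% and 2.45% for Hist1h1b and 58.4% and 75.6% for Hist1h2bc.

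**Figure D4:**
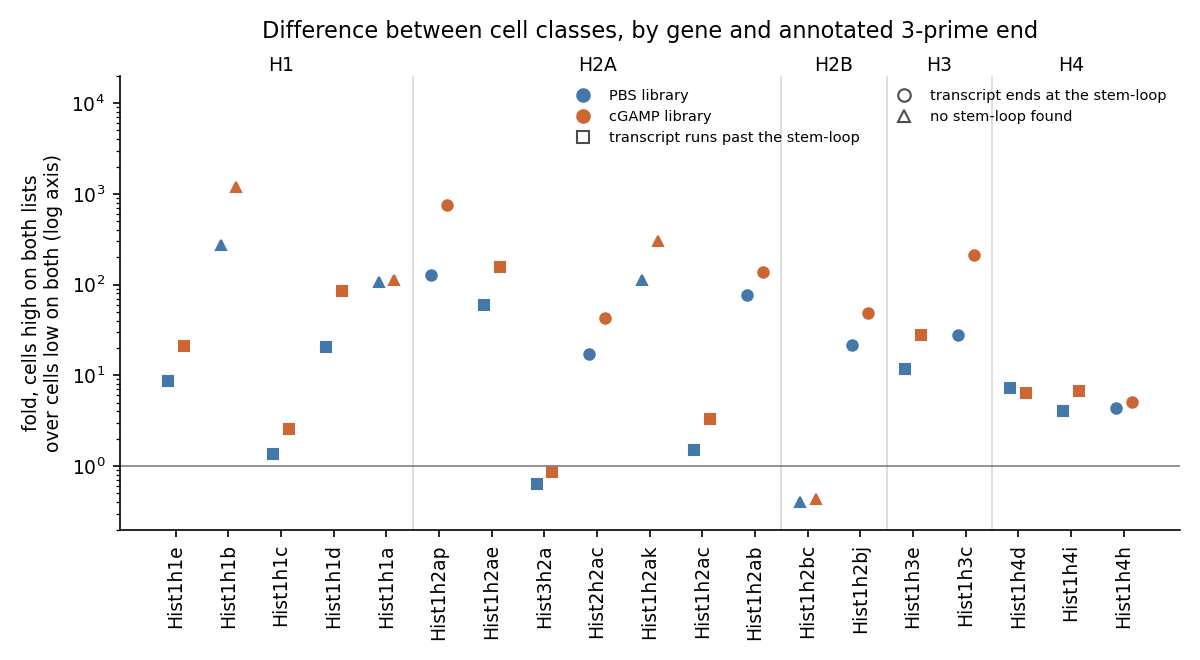
Fold of the level in cells high on both lists over that in cells low on both (log axis) for the 19 genes, in the PBS library (blue) and the cGAMP library (orange). Symbols give the annotated 3′ end of the transcript, and the line at 1 marks equal levels, with Hist1h2bc and Hist3h2a below it in both libraries.

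The annotated 3′ end went along with this fold in part. The 9 of the 19 genes whose transcripts run past the stem-loop had a median PBS fold of 7.25 (0.63 to 59.4), and the 6 whose transcripts end at it a median of 24.8 (4.38 to 127). The 4 genes with no stem-loop found ranged from 0.40 for Hist1h2bc to 276 for Hist1h1b. The groups overlapped. Across the 2517 PBS-treated ECs, the log levels of H1 and H2A mRNA had a Pearson correlation of 0.77 and those of H2A and H3 0.70, whereas H2B mRNA had 0.24 with H2A, and 0.67 without Hist1h2bc. The same values were 0.83, 0.78, 0.29 and 0.79 across the 1340 cGAMP-treated ECs. The cells of a library differ in depth, from 935 to 166335 UMIs with PBS and from 1185 to 173134 with cGAMP, and they are not independent replicates.

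Within the classes, the ratios between the treatments were not those over all ECs. In cells low on both lists, histone mRNA was at 284 CPM in the PBS library and 172 CPM in the cGAMP library (log2 ratio -0.73, -0.77 to -0.69), and all 5 types were lower. H1 stood at 72.0 and 28.0 CPM (log2 ratio -1.36, -1.46 to -1.27), H3 at 8.49 and 4.77 CPM (-0.83), H2A at 42.2 and 26.4 CPM (-0.68), H2B at 129 and 86.1 CPM (-0.58) and H4 at 32.6 and 26.4 CPM (-0.30). Of the 19 genes, 18 were lower by any size, where 57.4% of all genes were, and 1, Hist1h1a, was higher, where 42.6% were. At least 2-fold lower in the cGAMP library were 9, where 2.57% of all genes were, and 0 were at least 2-fold higher, where 2% were. The 19 genes were chosen over all ECs, and some, such as Hist1h1b and Hist1h2ap, reached 5 CPM only through other classes. The count of 9 thus includes ratios from few UMIs and is a description. Hist1h1c was at 47.1 and 18.7 CPM (log2 ratio -1.34, -1.46 to -1.22) and Hist1h1e at 22.5 and 8.64 CPM (-1.38, -1.56 to -1.21). For Hist1h1b the count in these cells was 48 UMIs with PBS and 6 with cGAMP (-2.55, -4.07 to -1.32), and for Hist1h2ap 76 and 10 UMIs (-2.48, -3.59 to -1.52). Hist1h4d was at 17.4 and 15.3 CPM (-0.19, -0.34 to -0.043), and at -0.85 (-1.32 to -0.41) after cells were thinned to 5000 UMIs. The lists that made the classes summed to 570.1 and 609 CPM (S) and 1163 and 1136 CPM (G2/M) in these cells. Within ECs of 20000 to 60000 UMIs the ratio of all 64 genes in this class was -0.68 and with at most 5% mitochondrial UMIs -0.79.

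In cells high on both lists the sum of all histone mRNA was close in the 2 libraries, at 1372 CPM in the PBS library and 1409 CPM in the cGAMP library (log2 ratio 0.039, 0.013 to 0.065), but the types lay on either side. H2A was higher in the cGAMP library, at 450.1 and 587 CPM (log2 ratio 0.38, 0.34 to 0.42), and H3 at 76.4 and 93.2 CPM (0.29, 0.18 to 0.39). H1 was lower, at 542 and 461 CPM (-0.24, -0.28 to -0.19), and H4 at 186 and 157 CPM (-0.25, -0.32 to -0.17). For H2B the interval of the ratio spanned 0, at 116 and 112 CPM (-0.058, -0.15 to 0.034). Of the 19 genes, 10 were lower, where 60% of all genes were, and 9 higher, where 40% were. At least 2-fold higher was 1 gene, Hist1h2ak, where 1.61% of all genes were, and 0 were at least 2-fold lower, where 1.19% were. Hist1h2ak was at 43.6 and 97.0 CPM (log2 ratio 1.15, 1.03 to 1.27) and Hist1h2ae at 119 and 186 CPM (0.64, 0.56 to 0.72). Hist1h2ap was at 177 and 186 CPM (0.077, 0.0043 to 0.15), Hist1h1e at 193 and 182 CPM (-0.086) and Hist1h1b at 242 and 179 CPM (-0.44, -0.51 to -0.37). Hist1h4d was at 126 and 96.5 CPM (-0.39), Hist1h1c at 63.8 and 48.3 CPM (-0.40, -0.54 to -0.27) and Hist1h2bc at 49.1 and 35.7 CPM (-0.46, -0.62 to -0.31). After thinning to 5000 UMIs per cell the last of these had a ratio on the other side of 0, at 0.16 (-0.37 to 0.67) from 102 and 47 UMIs, and Hist1h1c was at -0.039 (-0.53 to 0.43).

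**Figure D5:**
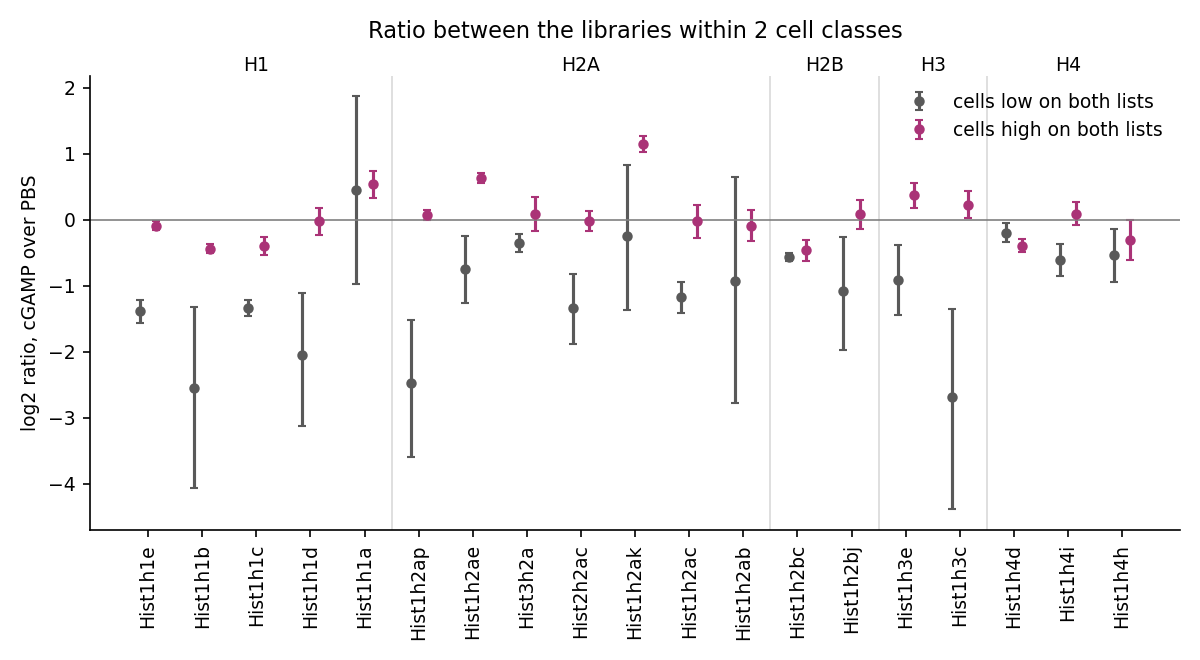
Log2 ratio of cGAMP over PBS for the 19 genes in cells low on both cell cycle lists (grey) and cells high on both (magenta), with 95% counting intervals and a line at 0. In cells low on both lists 18 of the 19 genes lie below 0, and in cells high on both lists 10 lie below and 9 above, with Hist1h2ak highest at 1.15.

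Relative to H1 mRNA, H2A mRNA was higher in the cGAMP library in all ECs, in cells low on both lists and in cells high on both, also under each of the 4 cell filters tried. Per 100 H1 UMIs there were 77.0 H2A UMIs in all PBS-treated ECs and 120 in all cGAMP-treated ECs. In cells high on both lists these values were 83.0 and 127, and in cells low on both 58.6 and 94.4. Without Hist1h2ak and Hist1h2ae they were 53.0 and 66.0 in cells high on both lists. The level of H2A on its own was less stable in these cells: in those of 20000 to 60000 UMIs (328 PBS-treated and 98 cGAMP-treated ECs) the log2 ratio of H2A was 0.024 (-0.0425 to 0.0903), that of H3 0.15 (-0.0051 to 0.31), that of all 64 genes -0.24 and that of Hist1h2ap -0.41, while Hist1h2ak stayed above 0 at 0.69 (0.50 to 0.87) and Hist1h2ae at 0.37 (0.26 to 0.49). The balance of S and G2/M genes inside the class also differed. The cells that leaned to S genes were 223 of 507 in the PBS library and 134 of 207 in the cGAMP library, and the Hist1h2ak ratio was 1.21 in them and 0.98 in those that leaned to G2/M genes, with Hist1h1b at -0.58 and -0.38.

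In cells high on S genes only, histone mRNA was at 257 CPM in the PBS library and 136 CPM in the cGAMP library (log2 ratio -0.92, -1.03 to -0.82). Cells high on G2/M genes only were at 484 and 404 CPM (-0.26, -0.42 to -0.11), the latter over 21 cells. Taken with the cells high on both lists, all S-high cells were at 1111 and 870.3 CPM (log2 ratio -0.35, -0.38 to -0.33). In this union the S-only cells weighed more in the cGAMP library, where they were 180 of 387 cells against 178 of 685.

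Many H2A and H2B genes start next to each other on opposite strands. In GENCODE, 10 such pairs had annotated starts between 176 and 302 bases apart, so that the members of a pair share a promoter region. Some of these genes, such as Hist1h2ak and Hist1h2bn, are annotated there by their coding sequence only. The RefSeq starts of these 2 genes lie closer together than their GENCODE starts. The partners were not at like levels in the poly(A)-captured RNA. Hist1h2ac and Hist1h2bc start 251 bases apart. Their log2 ratios were -0.81 and -0.52, and their folds between the cell classes of the PBS library 1.49 and 0.40. The GENCODE starts of Hist1h2ak and Hist1h2bn are 296 bases apart. Hist1h2bn was at 1.06 CPM in the PBS library and 1.22 CPM in the cGAMP library, where Hist1h2ak was at 12.6 and 20.1 CPM. In cells high on both lists their log2 ratios were 1.15 and 0.81. Hist1h2ae and Hist1h2bg, 176 bases apart, had 0.64 and 0.086.

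The 45 genes under 5 CPM held 7.65% of the histone UMIs of the PBS library and 8.73% of those of the cGAMP library. They ranged from 0.04 to 4.43 CPM in the PBS library and up to 3.72 CPM in the cGAMP library. Of these, 35 were lower in the cGAMP library and 10 higher, where 61.9% of the 7070 genes under 5 CPM with more than 3 UMIs in a library were lower and 38.1% higher. The counting interval lay below 0 for 13 of the 32 lower genes with UMIs in both libraries, and above 0 for 1 of the 10 higher genes. The 3 others among the lower genes, Hist1h1t, Hist1h4m and Hist1h2aa, had 9, 4 and 4 UMIs with PBS and 0 with cGAMP. Hist1h1t is the linker histone gene of the testis. In cells high on both lists 29 of 42 of the low genes were higher and 13 lower in the cGAMP library, where 46.6% and 53.4% of 3329 genes under 5 CPM were, 7 of the higher ones with an interval above 0 and 0 of the lower ones with an interval below 0.

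Most histone variant genes lie outside the clusters and give polyadenylated mRNA. Of 11 variant genes 10 reached 5 CPM, and of these 8 were lower and 2 higher in the cGAMP library (59.6% and 40.4% of all genes), with 2 at least 2-fold lower (1.7% of all genes) and a median log2 ratio of -0.45. Several also went with the cell cycle classes. In each library 5 of the 10 were at least 2-fold higher in cells high on both lists (5.91% and 5.43% of all genes). Among them were H2afx at 7.93-fold with PBS and 7.48-fold with cGAMP, H1fx at 5.86 and 5.57-fold and H2afz at 3.52 and 4.15-fold. Cenpa, at 11.3 and 29.2-fold, is also among the 5. It is a gene of the G2/M list that made the classes, so its fold was partly set by them. H2afz, which encodes the variant H2A.Z, stood at 1019 and 734 CPM (log2 ratio -0.47), and H2afv, its close relative, at 139 and 70.01 CPM (-0.99). H3f3b, a gene of the replacement histone H3.3, was higher at 1005 and 1198 CPM (0.25), whereas H3f3a, the other gene of that protein, was at 1032 and 925 CPM (-0.16). The 2 genes at least 2-fold lower were Cenpa, the centromeric H3, at 84.2 and 37.2 CPM (-1.18), and H1fx, a linker histone, at 5.21 and 1.58 CPM (-1.72).

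The genes that make and process histone mRNA were nearer between the libraries than the histone genes. Of 19 genes for transcription and 3′ end processing 18 reached 5 CPM, with 6 higher and 12 lower, near the shares over all genes (40.4% and 59.6%), 0 by 2-fold, and a median of -0.036. Slbp, which binds the stem-loop, stood at 63.6 and 69.9 CPM (log2 ratio 0.14, 0.079 to 0.19) and was 2.89-fold higher in cells high on both lists of the PBS library. Npat, the coactivator of histone gene transcription, stood at 15.2 and 14.03 CPM (-0.12, -0.24 to 0.0042). Of the genes for cyclin E, Ccne1 had a log2 ratio of 0.38, at the top of this list, and Ccne2 one of -0.037, while Sympk was lowest at -0.43. The 16 genes of histone chaperones and import all reached 5 CPM, with 10 higher and 6 lower, again beside 40.4% and 59.6% of all genes, 0 by 2-fold, and a median of 0.094. Hat1, which acetylates new H4, was at 41.5 and 57.3 CPM (0.47, 0.40 to 0.53), and Chaf1b, a subunit of the assembly factor CAF-1, at 15.5 and 18.9 CPM (0.29).

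Other genes were ranked by how closely their expression went with the summed histone mRNA across cells. Among 6037 non-member genes with at least 20 CPM, the 10 with the highest mean Pearson correlation over the 2 libraries were Pclaf (0.65), Top2a, Tk1, Pbk, Rrm2, Aurkb, Mki67, Stmn1, Birc5 and Spc24 (0.59). Of these, 5 were in the lists that made the classes. The correlation was taken over 2517 and 1340 cells that differ in depth and are not independent replicates, and it is a description.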

How the data were processed

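ECs of 1 PBS-treated and 1 cGAMP-treated tumour were profiled. The deposited values are natural logs of (1 + UMIs per 10000 UMIs in the same cell), which the authors made with Cell Ranger 3.0.0 and Seurat 3.1.1 on mm10 (kit v3 by the methods, v2 by the labels). The authors had removed cells under 500 genes or over 10% mitochondrial UMIs, genes in under 3 cells, and clusters without Pecam1. Doublet removal is not given in the sources used here, and no doublet caller was run. Dividing each cell by its lowest step returned whole UMIs for 100% of values above 0, within 0.01 of a whole number. UMIs were summed per library, and genes reaching 5 CPM in one or both libraries were compared (Python 3.11.15, scipy 1.17.1, R 4.3.3, Seurat 5.3.0). Intervals are exact Poisson, conditional binomial and Clopper-Pearson intervals. Cell cycle lists came from Seurat without Slbp, Casp8ap2 and Chaf1b, with levels for high cells set by the Otsu method. Members of at least 20 CPM were to be given in full and the rest by counts and ranges, and lower members that are named were chosen after their values were seen. Scripts were tested on simulated data. The members and lists were chosen with earlier results of these data known. The range of 20000 to 60000 UMIs, the separate values for cells high on both lists and their division by S and G2/M genes, the sums without the 8 genes of at least 20 CPM, and the H2B sum without Hist1h2bc were added after seeing the data.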

Additional observations from a re-analysis of the deposited data

Results flagged for a closer look

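For 7 values the libraries lay in opposite directions in cells low and cells high on both cell cycle lists, and this opposition was not tested, since each treatment had 1 mouse. The log2 ratio of cGAMP over PBS was 0.039 in cells high on both lists and -0.73 in cells low on both for all 64 genes, 0.38 and -0.68 for H2A, and 0.29 and -0.83 for H3. Among single genes it was 0.077 and -2.48 for Hist1h2ap, 0.64 and -0.75 for Hist1h2ae, 0.37 and -0.90 for Hist1h3e, and 0.23 and -2.69 for Hist1h3c. In cells low on both lists the ratios of Hist1h2ap and Hist1h3c rest on few UMIs in the cGAMP library. In cells high on both lists with 20000 to 60000 UMIs, the ratio of all 64 genes was -0.24 and that of Hist1h2ap -0.41, both then in the direction of the cells low on both lists. In the same cells H2A was at 0.024 and H3 at 0.15, each with an interval that spanned 0.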

How the results depend on the processing

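The sum of all 64 genes (log2 ratio -0.47) stayed below 0 in all settings tried. It was -0.44 with median-of-ratios scaling, -0.52 as the mean of per-cell levels, -0.57 with at most 5% mitochondrial UMIs, -0.45 with Pecam1 and Cdh5 but no Ptprc UMIs, -0.56 without the 5% deepest cells, -0.86 at 20000 to 60000 UMIs, -0.49 after thinning, -0.22 with class proportions held equal and -0.37 without the 8 genes of at least 20 CPM. With class proportions held equal, H2A and H3 turned to 0.17 and 0.054, and H1, H2B and H4 were -0.49, -0.40 and -0.28. At 20000 to 60000 UMIs H1 was -1.32, H2A -0.77, H3 -0.70 and H4 -0.78. With at most 5% mitochondrial UMIs H1 was -0.92, H2A -0.24, H2B -0.55 and H4 -0.59. As means of per-cell levels H1 was -0.87, H2A -0.23 and H3 -0.37, without the deepest cells H1 was -0.94 and H2A -0.27, and after thinning H2A was -0.21 and H2B -0.44. Genes at least 2-fold lower numbered 2 as means of per-cell levels, with the mitochondrial limit and without the deepest cells, 8 at 20000 to 60000 UMIs, and 0 after thinning and with class proportions held equal, where 1 was at least 2-fold higher. In S-high cells the ratio of -0.35 became -0.39 with both levels set lower, -0.38 with the mitochondrial limit, -0.32 with the marker filter, and -0.46 after thinning with the levels set again. In cells high on both lists alone it was 0.039, in those leaning to S genes -0.052, in those leaning to G2/M genes 0.15, and in those of 20000 to 60000 UMIs -0.24. The S-high share differed by 9.32 points with Seurat phase calls. The cause of these shifts was not tested. With 1 mouse per treatment, mouse, library and treatment cannot be told apart, and counts near 0 limit the ratios of genes such as Hist1h1b in cells low on both lists.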
